A study of Mus musculus with 6 samples.

Results

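The CpG dyads described here are autosomal CpG sites at which the cytosine of the plus strand and the cytosine of the minus strand, 1 base further on, both had a methylation level in every one of 6 reduced representation bisulfite sequencing (RRBS) libraries. Of 711246 autosomal CpG sites with a level on either strand in any library, 4936 met that rule, and no measured level entered the choice. In RRBS the enzyme MspI cleaves DNA at CCGG and the ends of the fragments are read, and bisulfite leaves 5-methylcytosine and 5-hydroxymethylcytosine as cytosine while it converts unmethylated cytosine. All libraries came from E14 mouse embryonic stem cells that carried short hairpin RNAs (shRNAs), 1 library per group: against Dnmt1 (shDnmt1), Dnmt3a (shDnmt3a), Dnmt3b (shDnmt3b), Dnmt3a together with Dnmt3b (shDnmt3a+3b) or Tet1 together with Tet2 (shTet1+Tet2), and a control shRNA. The sample title of the Dnmt1 library spells its target Dnmt1a, and its treatment label, which was followed, spells it Dnmt1. The labels do not say whether cells were pooled or cloned, and the size of each knockdown was not checked here.

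A CpG reads the same on both strands, so each dyad has a cytosine on each. Replication leaves the parental strand methylated and the new strand bare, and DNMT1, guided by UHRF1 to such hemimethylated dyads, copies the mark across. DNMT3A and DNMT3B methylate without a template, act on the cytosine of 1 strand at a time and are known to be sensitive to the bases next to the CpG, while TET1 and TET2 oxidise 5-methylcytosine. A level in RRBS is an average over molecules, and nothing links the plus reads of a dyad to its minus reads. Dyads methylated on either strand at random would therefore read as equal, so the values below describe inequality between the strand averages and cannot count hemimethylated molecules.

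Most dyads lay at the restriction site itself: 4510 were inside CCGG and 426 were not. The plus strand of a CCGG dyad is read from the fragment on its right and the minus strand from the fragment on its left. The next listed CCGG was a median of 135 bp away on the left and 136 bp on the right. For dyads outside CCGG the nearest listed CCGG was a median of 49 bp away on either side, within 60 bp on the left for 262 of the 426 and on the right for 247. For others it was far off. The deposited files give 5 letters around each cytosine, which join to a window of 6 letters per dyad. Inside CCGG, 4 windows read the same on both strands and 6 pairs of windows do not. The 4 pairs in which 1 strand has a pyrimidine (C or T) on both sides of CCGG, and its partner by base pairing a purine (A or G) on both sides, carry the strand difference described further on and are shown 5′ to 3′, with the CpG in capitals.
Pair 1, pyrimidine strand: tcCGgc
Pair 1, purine strand: gcCGga
Pair 2, pyrimidine strand: tcCGgt
Pair 2, purine strand: acCGga
Pair 3, pyrimidine strand: ccCGgc
Pair 3, purine strand: gcCGgg
Pair 4, pyrimidine strand: ccCGgt
Pair 4, purine strand: acCGgg

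The libraries listed between 445016 cytosines (shDnmt1) and 604227 cytosines (shTet1+Tet2). Read depth per cytosine is unknown, because only fractions were deposited. With 1 library per group there is no replicate error and no test between conditions. Where an SD is marked as over autosomes, it is the spread of the 19 chromosome means within 1 library. Dyads were grouped by the median over the 6 libraries of their strand mean: 3572 were low (below 20%), 738 intermediate and 626 high (above 80%). The 9872 cytosines of the dyads averaged 4.95% in shDnmt1, 18.2% in shDnmt3a, 22.0% in shDnmt3b, 18.9% in shDnmt3a+3b, 23.1% in shTet1+Tet2 and 22.0% in control. The 359336 other autosomal cytosines listed in all libraries averaged 5.39% in shDnmt1 and 25.8% in control. The dyads are thus somewhat poorer in methylation, and 12.5% of their cytosines were high against 16.1% of the others.

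Strand agreement was close in 5 of the 6 libraries and loose in shDnmt1. Across the 4936 dyads the plus and minus levels correlated at r = 0.635 in shDnmt1, 0.979 in shDnmt3a, 0.984 in shDnmt3b, 0.981 in shDnmt3a+3b, 0.983 in shTet1+Tet2 and 0.980 in control. These values describe sites of 1 library that share its depth, and the range from low to high dyads, which was narrow in shDnmt1, enters them. Within high dyads r was 0.260 in shDnmt1, 0.443 in shDnmt3a, 0.183 in shDnmt3b, 0.369 in shDnmt3a+3b, 0.102 in shTet1+Tet2 and 0.154 in control. Within intermediate dyads, where levels spread widely in the other libraries, r was 0.057 in shDnmt1 and lay between 0.764 (shTet1+Tet2) and 0.812 (shDnmt3a+3b) elsewhere, with control at 0.767. The averages of the strands differed by less than their spread over autosomes in shDnmt1 and in control. Plus minus minus was 0.05 ± 1.16 points in shDnmt1 and 0.01 ± 0.52 points in control (SD over autosomes), and between -0.11 and 0.12 points in the other 4 libraries. Exactly equal strands were mostly at 0%, with 2441 of 2455 equal dyads in shDnmt1 and 1898 of 1917 in control.

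**Figure D1:**
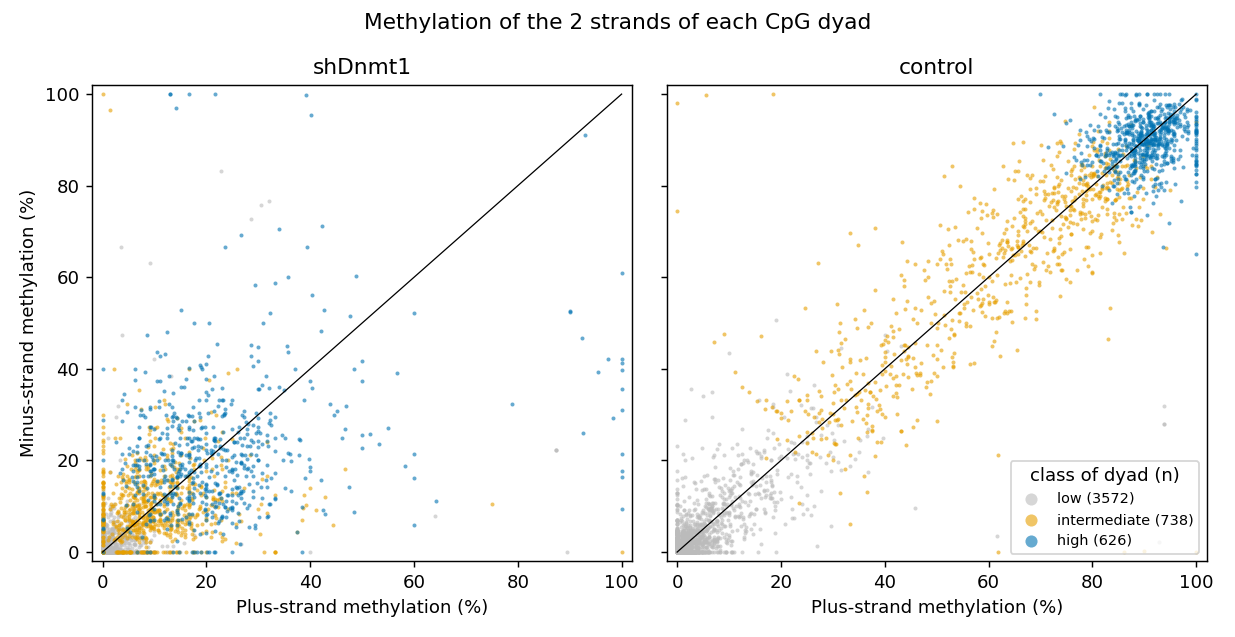
Plus-strand methylation (x axis, %) against minus-strand methylation (y axis, %) for the 4936 dyads in shDnmt1 (left) and control (right), 1 point per dyad, coloured by class, with the line of equality. Control dyads follow the line (r = 0.980), while shDnmt1 dyads form a cloud below 40% on both axes (r = 0.635) with points along the edges at 0% and 100%.

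The size of the inequality set shDnmt1 apart at high dyads. Strands differed by at least 20 percentage points in 182 dyads (3.69%) in shDnmt1 and in 64 (1.30%) in control. The background, all autosomal dyads with both strands in that library, was 3.43% in shDnmt1 and 4.4% in control. The members were therefore close to the background in shDnmt1 and under it in control, and over each library's own dyads the share was lower in shDnmt1 than in control. In the other libraries 70 dyads were unequal in shDnmt3a, 60 in shDnmt3b, 61 in shDnmt3a+3b and 78 in shTet1+Tet2, against backgrounds of 4.35%, 4.02%, 4.68% and 4.6%. Among high dyads 118 of 626 (18.8%, 95% Wilson interval 15.98 to 22.1%) were unequal in shDnmt1 and 7 (1.12%, 0.543 to 2.29%) in control. The other 4 libraries had 6 to 18 such dyads. The interval covers counting of dyads only. Among the 738 intermediate dyads the counts ran from 40 to 58 over the 6 libraries, with 45 in shDnmt1 and 40 in control. The unequal dyads of shDnmt1 had no preferred genomic strand, with 91 higher on plus and 91 higher on minus. Of the 182, 146 were unequal in none of the other 5 libraries. These 146 are part of the 298 dyads unequal in 1 library only, and the rest of the 298 fell in the other 5 libraries. Those 5 libraries had 60 to 78 unequal dyads each. Unequal dyads of shDnmt1 were thus more often unequal in that library only than those of the other 5 libraries pooled. The share was not taken for each of the 5. Over the 6 libraries, 298 dyads were unequal in 1 library, 49 in 2, 13 in 3, 4 in 4, 8 in 5 and 4 in all 6.

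Inequality is bounded by the level, and shDnmt1 has few dyads at the levels where control has many, so libraries were also compared at the same level. Over all dyads, those with a strand mean of 20 to 40% differed between strands by a mean of 13.7 points in shDnmt1 (312 dyads) and 9.45 points in control (207 dyads). For 10 to 20% the values were 9.49 points in shDnmt1 (572 dyads) and 7.11 points in control (172 dyads). The dyads in a bin are those at that level in that library, so the libraries need not share them. When dyads were instead taken by a level of 20 to 40% in shDnmt3b, the same dyads in each library, the order turned, with 4.57 points in shDnmt1 and 8.13 points in control, but their levels in shDnmt1 are then no longer matched to those in control. Dyads inside CCGG and away from the 3 unusual stretches described further on gave 12.9 points in shDnmt1 and 8.39 points in control at 20 to 40%, and 9.30 and 6.40 points at 10 to 20%. At 20 to 40% the strands of 24.1% of these dyads in shDnmt1 and 5.13% in control were unequal by at least 20 points. The remaining 4 libraries lay between 7.27 and 7.78 points at 20 to 40%, below control. In the 5 libraries other than shDnmt1 the mean difference was largest at 40 to 60% and shrank toward both ends, to 4.01 points at 95 to 100% in control. Depth per cytosine may differ between libraries and is not known, and its part in the larger spread of shDnmt1 was not tested.

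**Figure D2:**
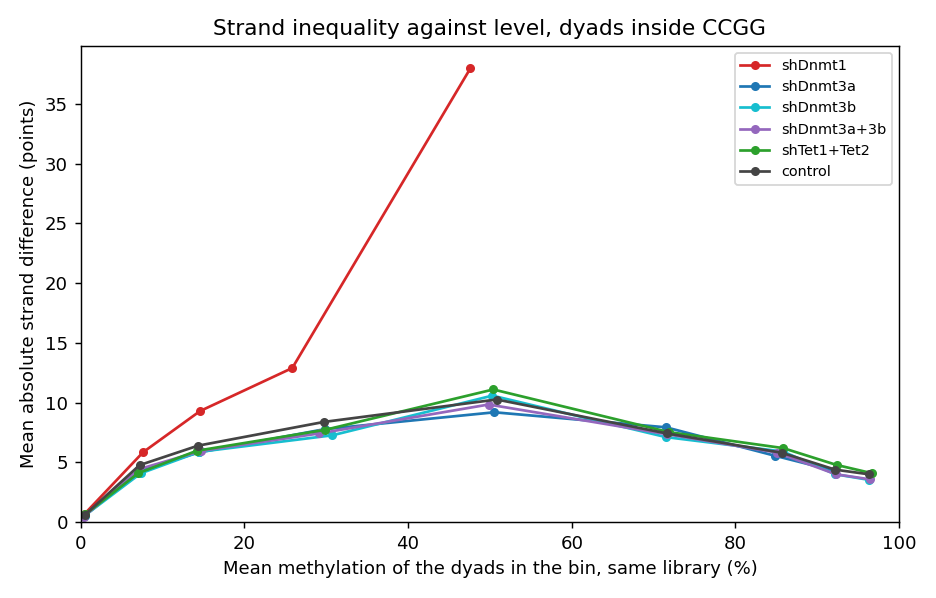
Mean absolute difference between the strands (y axis, points) against the mean level of the dyads in each bin of level (x axis, %) for dyads inside CCGG and away from the 3 stretches, 1 line per library, bins of at least 20 dyads. The shDnmt1 line lies above the other 5 from 5% upward, at 12.9 points against 8.39 points in control for the bin of 20 to 40%.

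Which strand read higher in shDnmt1 went with the bases around the CCGG. In high CCGG dyads with pyrimidines on 1 strand and purines on the other (314 dyads), the pyrimidine strand read 26.4% and the purine strand 16.3% in shDnmt1, a difference of 10.1 ± 4.0 points (SD over autosomes). In control the pyrimidine strand read 90.9% and the purine strand 88.8%, a difference of 2.14 ± 1.51 points. The pyrimidine strand was the higher one in 249 dyads and the lower one in 62 in shDnmt1, against 200 and 113 in control, and its mean was higher on all 19 autosomes in either library. The other libraries gave 1.27 points in shDnmt3a, 1.05 in shDnmt3b, 1.74 in shDnmt3a+3b and 1.42 in shTet1+Tet2. Taken per dyad, the difference in shDnmt1 exceeded that in control by 7.99 ± 4.52 points, on all 19 autosomes. Strands read far higher in control, near the upper bound, so this comparison in points is not matched by level. For the other 4 knockdowns the same quantity was between -1.09 and -0.40 points. The comparison of these outer bases was chosen after levels had been seen. The base before and the base after CCGG are coupled in these 314 dyads, so within them their parts cannot be told apart. Mixed windows and windows that read the same on both strands uncouple the bases, and some are given in the next paragraph.

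Each of the 4 window pairs shown above gave the same order in shDnmt1. In high dyads the tcCGgc strand read 30.5% and its gcCGga partner 15.9% (82 dyads), and the first was higher in 69 of them. The tcCGgt strand read 29.3% and acCGga 18.9% (68 dyads, 56 higher on the first). The ccCGgc strand read 24.4% and gcCGgg 15.4% (97 dyads, 75 higher on the first), and ccCGgt read 21.4% and acCGgg 15.4% (67 dyads, 49 higher on the first). In control the same pairs differed by 2.62, 2.31, 1.15 and 2.83 points, so the gap in points was wider in shDnmt1 in each pair. Inequality is bounded by the level, and these gaps are not matched by level. Of the mixed pairs, ccCGga read 17.3% and its partner tcCGgg 23.4% in shDnmt1 (98 dyads), and 90.1% and 89.3% in control. That difference of -6.07 points was similar in size to the 6.04 points of pair 4. Yet both of its strands have a pyrimidine before CCGG and a purine after it. The acCGgc strand read 20.3% and gcCGgt 21.7% in shDnmt1 (58 dyads). Among these 12 strands the highest means in shDnmt1 were the pyrimidine strands of pairs 1 and 2, and the lowest were the purine strands of pairs 1, 3 and 4. Dyads with equal windows were unequal too. Of 128 high dyads whose window reads the same on both strands, 18 (14.1%) were unequal by 20 points in shDnmt1 and 0 in control, against 64 of 314 (20.4%) and 4 (1.27%) in the pyrimidine and purine pairs.

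Intermediate dyads showed a smaller difference of the same sign. In the 333 of them with pyrimidines on 1 strand, the pyrimidine strand read 13.96% and the purine strand 8.04% in shDnmt1, a difference of 5.92 ± 4.12 points, positive on 18 of 19 autosomes. In control these strands read 61.8% and 59.2%, a difference of 2.59 ± 4.66 points, positive on 15. The other knockdowns lay between 0.90 points (shTet1+Tet2) and 1.66 points (shDnmt3a+3b). Low dyads differed by 0.25 points both in shDnmt1 and in control.

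Cytosines outside the dyads differed in the same direction. Their windows hold only the base before CCGG. Among high CCGG cytosines that are not in dyads, those after a pyrimidine read 22.5% (17375 cytosines) and those after a purine 18.2% (12876 cytosines) in shDnmt1, a difference of 4.35 points. Measured in the same way, the dyads' own cytosines differed by 4.30 points in shDnmt1. In control the differences were 0.28 points outside and 0.64 points inside the dyads. By this measure the dyads were close to the other MspI sites.

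**Figure D3:**
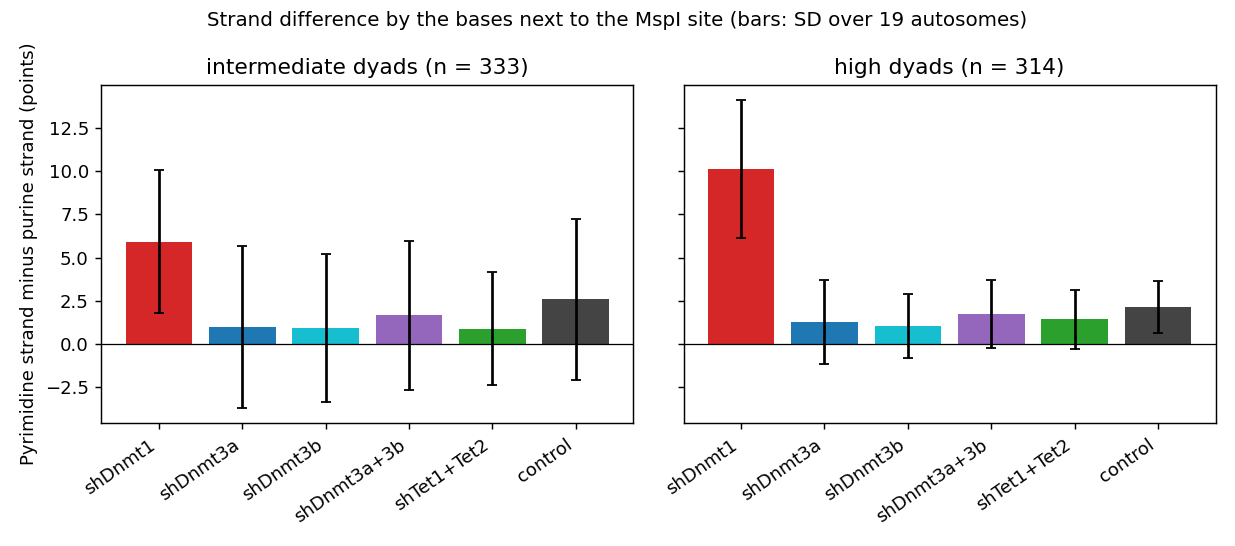
Level of the pyrimidine strand minus level of the purine strand (y axis, points) in CCGG dyads of the intermediate class (left, 333 dyads) and the high class (right, 314 dyads) for each library (x axis). Bars are means over dyads and whiskers the SD over 19 autosomes: shDnmt1 reaches 5.92 and 10.1 points, control 2.59 and 2.14 points.

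Where methylation remained in shDnmt1 it was often above 20% on 1 strand only. In control, 642 dyads had at least 80% on both strands. In shDnmt1 these averaged 22.6% on plus and 21.7% on minus. Both strands were at or above 20% in 172 of them (26.8%), only 1 strand in 279 (43.5%) and neither in 191 (29.8%). Plus was the strand above in 143 and minus in 136 of the 279, in similar numbers. The threshold of 20% lies near the mean level of these dyads in shDnmt1, so it divides them finely, and at 10% both strands were above in 457 (71.2%). Among the 325 of these dyads in the 4 window pairs, 155 had only 1 strand at or above 20%. That strand was the pyrimidine strand in 143 and the purine strand in 12. The cut lies between the strand means of high dyads in these pairs in shDnmt1 (26.4% and 16.3%), which favours the pyrimidine strand. Without a cut, the pyrimidine strand was the higher one in 249 of those 314 high dyads and the lower one in 62. The higher strand of the 642 dyads averaged 28.7 ± 17.6% and the lower 15.6 ± 9.8% in shDnmt1 (SD over dyads), against 92.2 ± 4.5% and 87.6 ± 4.3% in control. Ranking strands by level makes them differ by construction, and control, where the dyads were chosen, cannot hold a difference above 20 points here. In shDnmt3b, which took no part in that choice, the higher strand averaged 91.9% and the lower 86.7%. Complete loss from 1 strand was rare: 10 of the 642 had 0% on 1 strand and at least 20% on the other in shDnmt1.

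Both strands were lower in shDnmt1 than in control at most dyads that changed by 20 points. Of the 4936 dyads, 1280 (25.9%) were lower than control by at least 20 points on both strands and 135 (2.74%) on 1 strand only. Plus was lower in 27.1% and minus in 27.5%, somewhat under the 31.1% of all autosomal cytosines shared with control. Mean differences from control were -17.1 ± 3.0 points on plus and -17.1 ± 3.3 points on minus over all dyads, and -67.2 ± 6.1 and -67.3 ± 3.7 points in the high class. No dyad was higher by 20 points on both strands, and 6 were on minus only (0.122%, background 0.0115%). All 6 were low dyads, and most of them lay close together in the chromosome 17 stretch described further on. Their share above background thus rests largely on that stretch.

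The other knockdowns had fewer such dyads, and more of them on 1 strand than on both. In shDnmt3a 98 dyads (1.99%) were lower on both strands and 322 (6.52%) on 1 strand. Plus was lower in 5.39% and minus in 5.11%, against a background of 7.99%. Where plus was lower by 20 points in shDnmt3a, minus differed from control by a mean of -17.2 points, so the other strand was also lower on average but often short of 20 points. Higher by 20 points were 6 dyads on plus in shDnmt3a (0.122%, background 0.293%). In shDnmt3a+3b 52 dyads were lower on both strands and 263 on 1, with plus lower in 3.73% (background 4.9%), and the minus strand of those lower on plus averaged -14.8 points. Higher on plus were 7 dyads in shDnmt3a+3b (0.142%, background 0.421%). In shDnmt3b 6 dyads were lower on both strands and 55 on 1, with 0.77% lower on plus (background 1.22%), and the minus strand of those averaged -8.11 points. Higher by 20 points were 36 dyads on plus in shDnmt3b (0.729%, background 1.74%), and 1 was higher on both. In shTet1+Tet2 8 dyads were higher on both strands and 111 on 1, with plus higher in 1.42% (background 2.58%). There 27 dyads were lower on plus (0.547%, background 0.889%). Most calls at 1 strand in shDnmt3b and shTet1+Tet2 were thus not matched at that size on the other strand.

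Some dyads were unequal in the same direction in every library. Strands differed by at least 20 points with 1 sign in all 6 libraries in 4 dyads, of 4936, and with 10 points in 18. These 4 are given here. On chromosome 1 (194189127 to 194189128, mm9, plus strand tcCGgc) plus read 100% and minus 0% in shDnmt1, shDnmt3a, shDnmt3b, shTet1+Tet2 and control, and 100% and 0.7% in shDnmt3a+3b. On chromosome 13 (44965001 to 44965002, plus strand ccCGgc) plus read 1.4% and minus 96.6% in shDnmt1, and 5.5% and 99.8% in control. There the other libraries had 0 to 2% on plus and 98 to 99.5% on minus. The dyad on chromosome 11 (100127012 to 100127013, plus strand acCGgg) had 100% on minus in all 6 libraries, while plus read 0% in shDnmt1, 18.2% in shDnmt3a, 15.8% in shDnmt3b, 19% in shDnmt3a+3b, 45.5% in shTet1+Tet2 and 18.4% in control. A dyad on chromosome 17 (39984869 to 39984870, plus strand acCGgc) read 20% on plus and 0% on minus in shDnmt1, 89.3% and 0% in shDnmt3a, 75.8% and 18.2% in shDnmt3b, 85.7% and 8.3% in shDnmt3a+3b, 70.4% and 2.6% in shTet1+Tet2, and 86.1% and 0% in control. By the choice of these 4, the higher strand was the same in all 6 libraries. Only the chromosome 17 dyad had its higher strand far lower in shDnmt1. Below 20 points in some library were the dyads next in rank, on chromosome 9 (3031956 to 3031957, plus strand caCGtc), with plus above minus by 58.7 points in shDnmt1 and 20.3 in control, and on chromosome 2 (98507364 to 98507365, plus strand ggCGag), where plus minus minus was -55.3 points in shDnmt1 and -14.6 points in control.

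Away from such dyads the inequality recurred only weakly. In intermediate dyads the difference of the strands correlated at r = 0.282 to 0.383 for library pairs with shDnmt1 and at 0.479 to 0.554 for pairs without it. Most of that rested on 10 dyads unequal in at least 5 libraries, since without them the ranges were 0.051 to 0.178 with shDnmt1 and 0.054 to 0.162 without it, over 728 dyads. In high dyads r was 0.250 to 0.324 for the 5 pairs with shDnmt1 and 0.190 to 0.304 for the 10 pairs without it. Of the 118 high dyads unequal in shDnmt1, between 62.7% (shDnmt3b) and 68.6% (shDnmt3a) had the same strand higher in each of the other libraries, with 66.9% in control. The median difference in that direction was 1.9 to 3.75 points there, against 27.6 points in shDnmt1. Over these 118 dyads the direction was thus shared more often than not, at a small part of the size. Only 100 of the 118 lay outside the unusual stretches described further on. Dyads in those stretches partly share their sequence and are not all separate observations. The share in the same direction was not taken without the stretches, nor over all high dyads for comparison.

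The level of neighbouring CpGs on the same fragment moved weakly with the inequality of intermediate CCGG dyads. In 39 of them the plus-strand cytosines up to 50 bp to the right averaged at least 20 points more in control than the minus-strand cytosines up to 50 bp to the left. There plus exceeded minus at the dyad by 2.92 points in shDnmt1, 3.26 in shDnmt3a, 3.94 in shDnmt3b, 3.82 in shDnmt3a+3b and 0.58 in shTet1+Tet2. In the 45 dyads with the opposite slope, plus minus minus was -3.66, -5.23, -5.07, -5.83 and -4.72 points in these libraries. Over all 411 intermediate dyads with such neighbours, slope and strand difference correlated at r = 0.159 (shTet1+Tet2) to 0.250 (shDnmt3a), with 0.187 in shDnmt1. Over 227 high dyads r was 0.016 in shDnmt1 and -0.058 to 0.160 in the other knockdowns. Cytosines on 1 fragment are read from the same molecules, and the part of that in these values was not tested. A second CCGG within 60 bp, which gives a very short fragment, was listed for 5 dyads on the left and 5 on the right. Their values ran from -82.7 to 20 points and from -0.7 to 89.4 points in shDnmt1, too few for a mean to be given.

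Dyads outside CCGG were few outside the low class, with 18 intermediate and 28 high, and 19 of the high ones lay in 3 stretches of the genome. None of the intermediate and 154 of the 380 low ones did. In the high class 22 of the 28 (78.6%) were unequal by at least 20 points in shDnmt1 and 2 (7.14%) in control, against 96 of 598 (16.1%) and 5 (0.836%) inside CCGG. In shDnmt1 the 28 averaged 57.9% and the 598 averaged 21.0%, so these shares are not matched by level. Most of the 28 also lay in stretches chosen by their inequality in shDnmt1, and the 2 sets were not compared without the stretches. Stretches were defined, after levels had been seen, as members at most 50000 bp apart that held at least 3 dyads unequal by 40 points in shDnmt1. They held 187 dyads and 27 of the 45 dyads unequal by that much in shDnmt1. Without them 3.16% of the dyads in shDnmt1 and 1.09% in control were unequal by 20 points, and 16.5% and 0.988% of the high ones. The smallest, on chromosome 1 (194189127 to 194189169), held 3 dyads, all unequal by 40 points in shDnmt1 and 1 of them, the dyad with 100% and 0%, in control. No annotation of mm9 was used, so what these stretches are is not stated.

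The stretch on chromosome 9 (3000937 to 3035875) held 17 dyads, all of them outside CCGG. The plus strand there had a median of 98.3% in shDnmt1 and 100% in each of the other 5 libraries. The minus strand had a median of 39.3% in shDnmt1, 84.5% in shDnmt3a, 89.8% in shDnmt3b, 85.0% in shDnmt3a+3b, 86.7% in shTet1+Tet2 and 85.5% in control. In shDnmt1 16 of the 17 were unequal by 20 points, against 1 in control, and 14 were unequal by 40 points, with plus higher each time. The stretch was chosen by its inequality in shDnmt1, so these counts describe it and do not measure an excess over control. The windows recur along the stretch, with 8 dyads reading caCGtc and 6 reading ctCGcc on the plus strand, so these dyads share their sequence and are not separate observations. Across all dyads, 22 had 1 strand at 95% or more in all 6 libraries, and 12 of these lay in the stretches. Their other strand had a median of 21.6% in shDnmt1 and 85.5% in control. No dyad had both strands at 95% or more in all libraries.

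**Figure D4:**
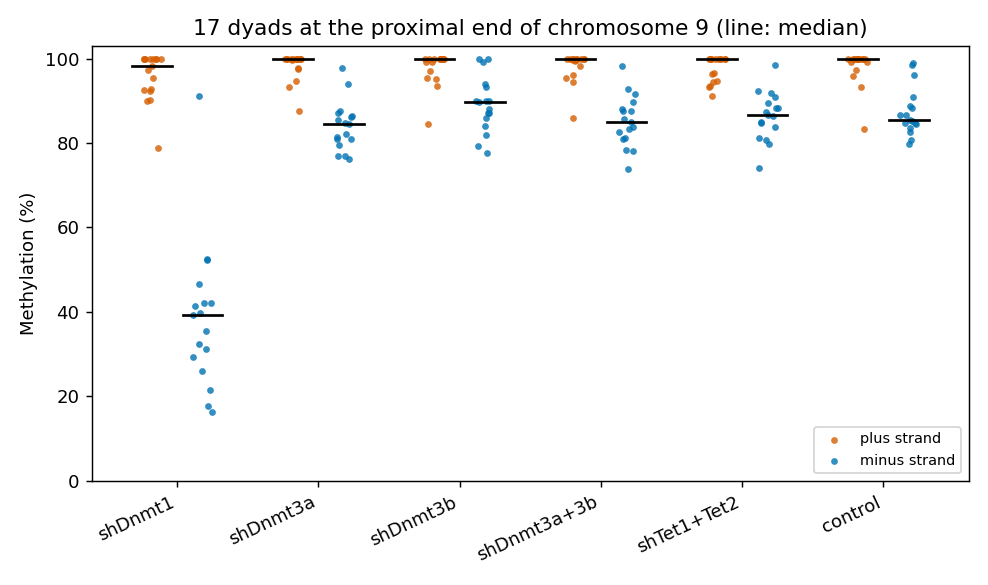
Methylation (y axis, %) of the plus strand (orange) and the minus strand (blue) of the 17 dyads of the chromosome 9 stretch in each library (x axis), 1 point per dyad and strand, black lines at the median. The plus strand stays near 100% in all libraries, and the minus strand has a median of 39.3% in shDnmt1 and 85.5% in control. The stretch was chosen by its inequality in shDnmt1.

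The dyads that kept most methylation on both strands in shDnmt1 came partly from the same stretch. On chromosome 9 (3004590 to 3004591, plus strand tcCGta) plus read 92.9% and minus 91.1% in shDnmt1, and 100% and 98.9% in control. Another dyad there (3001405 to 3001406, plus strand caCGtc) read 90% and 52.6% in shDnmt1, and 93.2% and 96.2% in control. On chromosome 10 (122168197 to 122168198, plus strand acCGga) plus read 100% and minus 60.9% in shDnmt1, and 100% and 95% in control.

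The stretch on chromosome 17 (39980017 to 39985745) held 167 dyads, 13 inside CCGG, and set shDnmt1 and control apart from the other 4 libraries. Strands were unequal by 20 points in 13 of them in shDnmt1 and 10 in control, and in 1 or 2 in each of the others. This stretch too was chosen by its inequality in shDnmt1. At 39984817 plus read 89.4% and minus 0% in shDnmt1, and 92.8% and 2.3% in control, while the other 4 libraries had 0 to 8.3% on plus and 1.1 to 2.2% on minus. At 39985021 plus read 22.9% and minus 83.3% in shDnmt1, and 19% and 50.6% in control, against at most 3.7% on either strand in the others. Among low dyads the strand differences correlated at r = 0.574 between shDnmt1 and control, and at 0.253 without the 3 stretches. The labels give no batch that pairs these libraries.

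The base directly after the CpG could be compared only outside CCGG, where it differs between strands. In the high class 16 dyads had a pyrimidine after CG on 1 strand and a purine on the other. The pyrimidine strand read 73.2% and the purine strand 36.9% in shDnmt1, and 91.3% and 89.5% in control. The differences of 36.2 ± 36.3 points and 1.86 ± 14.66 points (SD over dyads) rest on few sequences, since 9 of the 16 lay in the stretches. The 7 others differed by 23.3 points in shDnmt1 and -4.39 points in control, and 4 of these lay within 116 bp on chromosome 2, so they are not separate observations either. The size also varied with the bases set against each other, but these cannot be told apart from location. Of the 16, 8 dyads set C against A (6 in the stretches) and 5 set T against G (3 in the stretches). The remaining dyads lay outside the stretches. They gave 7.6 points in shDnmt1 and -13.2 points in control for C against G (1 dyad). For T against A (2 dyads) the values were 10.9 points in shDnmt1 and -17.4 points in control. In the low class, with 223 such dyads, the difference was -0.78 points in shDnmt1.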

How the data were processed

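The values are methylation fractions from 0 to 1 with 3 decimals, deposited by the authors for single CpG cytosines of 1 strand. TruSeq libraries of MspI-digested DNA were bisulfite converted (EpiTect) and run on a HiScanSQ, per the labels' protocols. Named without roles in the submitters' processing notes are CASAVA 1.8, Bismark 0.10.1 and the build mm9. For the coverage minimum, trimming and duplicates, the settings were not given in the sources used here, and depth is unknown. Cytosines without a level (67 to 135 per library) were left out, fractions were turned into percent, and strands were joined by position with Python 3.11.15, pandas 2.3.3, NumPy 2.4.6 and SciPy 1.17.1. Figures used matplotlib 3.10.9. Positions are 1-based. The functions were tested on simulated data. The members, classes and comparisons were chosen with earlier results of these data known. Named dyads are the 3 most unequal in each direction by their smallest difference over the libraries, the 3 with the highest lower strand in shDnmt1 among those at 80% on both strands in control, and the 3 most unequal in shDnmt1 (which were also in the first group). Dyads on chromosome 18 are not named. The coordinates at 39984817 and 39985021 were added after their values were seen. No gene is named, because no mm9 annotation was used. Alternatives were other thresholds, other sets of dyads, classes taken from shDnmt3b, and Spearman correlation. No test was run between conditions, as each group is 1 library.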

Additional observations from a re-analysis of the deposited data

How the results depend on the processing

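No paired analysis was possible because each group is 1 library, and for the same reason no replicate could be left out. Of 77 alternative values, 43 stayed within the spread used (SD over autosomes or dyads, or a 95% Wilson interval for shares) and 34 moved. The cause was not tested. Strand agreement in control was 0.930 without CCGG dyads and 0.879 as a Spearman correlation. The share unequal in shDnmt1 was 9.62% without CCGG dyads, 11.04% at 10 points, 0.912% at 40 points, 3.13% inside CCGG only and 3.16% without the stretches. In control it was 4.46%, 8.39%, 0.284% and 0.998% for the first 4 of these, and 4.404% over dyads with both strands in control, so the excess of shDnmt1 over control does not hold over each library's own dyads. Without CCGG dyads, plus minus minus was 1.37 points in shDnmt1 and 0.63 in control. At a level of 20 to 40% the mean difference was 39.1 points in shDnmt1 and 26.7 in control without CCGG dyads. These 2 means rest on few dyads. At that level, 303 of 312 dyads in shDnmt1 and 195 of 207 in control lay inside CCGG and away from the stretches. With the level taken from shDnmt3b it was 4.57 points in shDnmt1, below the 8.13 of control, so their order turned, but these dyads are not matched by their level in shDnmt1. Persistently unequal dyads numbered 18 at 10 points, 0 without CCGG dyads and 12 without shDnmt1. After the CpG, C against G (1 dyad) gave 7.6 points in shDnmt1 and -13.2 in control, and T against A (2 dyads) gave 10.9 in shDnmt1 and -17.4 in control, against 36.2 and 1.86 over all 16 dyads. Both strands kept 20% in 80% of the control-high dyads outside CCGG, and 10% in 71.2% of all. The 80% rests on few dyads and largely on the stretches, since 19 of the 28 high-class dyads outside CCGG lay there. Shares lower on both strands at 10 points were 29.0% in shDnmt1, 9.74% in shDnmt3a, 0.446% in shDnmt3b and 6.69% in shDnmt3a+3b. Without CCGG dyads they were 4.46% in shDnmt1, 1.41% in shDnmt3b and 1.41% in shTet1+Tet2. Over dyads shared with control alone they were 23.0% in shDnmt1, 3.04% in shDnmt3a and 1.53% in shDnmt3a+3b. The difference between pyrimidine and purine strands in high CCGG dyads was 9.76 to 10.1 points in shDnmt1 and 1.74 to 2.14 in control under the alternatives tried.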

Other observations

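Outside the autosomes, 64 dyads on chromosome X had both strands in all 6 libraries. Their strands averaged 3.75% on plus and 2.30% on minus in shDnmt1, and 14.2% and 14.04% in control. Strands were unequal by 20 points in 3 of them in shDnmt1 and in 4 in control. The mitochondrial genome had 5 dyads. They averaged 0.3% on plus and 0% on minus in shDnmt1, and 0% on both strands in control, and none was unequal by 20 points in any library.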
